A study of Coprinopsis cinerea with 10 samples.

Results

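The fully expanded cap of the mature mushroom was compared with vegetative mycelium in Coprinopsis cinerea, the grey shag ink cap, over 13320 genes and their annotated products. The comparison used 4 of the 10 one-colour NimbleGen arrays of the series, namely both arrays titled mature fruiting body and both titled mycelium, and each difference is the mean log2 intensity of the cap arrays minus that of the mycelium arrays. Both stages came from the same fruiting dikaryon, of 50% Okayama-7 origin, backcrossed to that monokaryon for 5 generations and about 98.44% homologous to it. Mycelium was grown for about a week at 37 °C on yeast extract, malt extract and dextrose agar, and growth from 5 plates was pooled for a replicate. Caps came from fruiting bodies about 4 cm tall, formed at 25 °C with light and dark alternating every 12 h, and 4 to 5 structures made up a replicate. The other 6 arrays held fruiting initials, primordia and young fruiting bodies, 2 each, and they entered the fit for its estimate of the spread and for the steps between the stages.

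The mycelium is a network of hyphae that feeds by secreting enzymes into its substrate. In ink caps the cap is the organ that carries the gills, where meiosis takes place in near synchrony and basidiospores ripen and darken. The ripe cap then digests itself, and chitinases and glucanases, which cut the main polymers of the fungal wall, are known for their part in that autolysis.

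Temperature, tissue and stage changed together between the groups and cannot be told apart. A light cycle is given for the fruiting stages only, so light cannot be told apart from stage either. The same holds for position on the single slide, whose areas followed the stages. The replicates were biological ones per the titles, but nothing says that they came from separate dates or incubators, and p-values measure only the spread between these samples. Replicates correlated across genes at r = 0.997 in both stages. Beyond the noise between the 2 probe blocks of an array, the replicate spread was 1.24 times the expected one in mycelium and 2.04 times in the cap. In such bulk samples fewer cells of a type and less RNA per cell cannot be told apart.

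Markers of the stages gave a mixed picture. Spo11 (CC1G_03320), the nuclease that makes the DNA breaks of meiosis, stood at 6.22 and 6.24 log2 units in mycelium, under the detection floor, and at 9.78 and 9.59 in the cap. It was at least 8.36-fold higher in the cap (adjusted p = 9.97e-08). The galectins, lectins that bind beta-galactosides, were taken as the marker of fruiting body tissue, but they were not higher in the mature cap. Galectin-1 (CC1G_05003) read 11.61 and 11.67 in mycelium and 9.46 and 9.28 in the cap, galectin-2 (CC1G_05005) read 13.99 and 13.98 against 12.41 and 12.58, and CGL3 (CC1G_00723) 13.69 and 13.68 against 10.85 and 10.15. All 3 were lower in both cap arrays than in both mycelium arrays. The log2 differences were -2.27 ± 0.0626, -1.49 ± 0.0532 and -3.18 ± 0.195 (SE from limma's fit, 2 arrays per stage, adjusted p = 6.69e-08, 2.37e-07 and 4.06e-06). Such an SE pools the spread of all stages. Among bright genes the SD between replicates was 0.086 log2 units in the cap and 0.042 in mycelium. The pooled SE can therefore be too small for cap means. Galectin-1 had a mean of 13.86 in initials and 13.34 in young fruiting bodies, and the cap stood at -3.97 ± 0.0626 relative to that preceding stage (adjusted p = 1.25e-08). The hydrophobins, small secreted proteins that coat hyphae, were taken as the mycelial marker, although the family also has fruiting body members. In the cap 5 of 5 listed genes were lower, against 40.0% of all genes. Products named for meiosis and recombination went both ways, with 9 of 20 higher and 10 lower. These were 45% and 50%, beside 40.7% and 40.0% of all genes. Without 5 products caught by other words, left out after the values were seen, 9 of 15 were higher and 6 lower, or 60% and 40%.

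Out of 13320 genes tested, 5418 were higher in the cap at a Benjamini-Hochberg adjusted p under 0.05 in limma's fit, or 40.7%, and 5329 were lower, or 40.0%. At least 2-fold differences were found upward in 1973 genes (14.8%) and downward in 2263 (17.0%). Differences of 8-fold or more numbered 416 up and 583 down, and those of 32-fold or more 91 up and 114 down. In every called gene the 2 cap arrays lay wholly above or wholly below the 2 mycelium arrays. The median difference over all genes was 0.03 log2 units, and the median SE 0.0493. A floor was set at 4 times the level of the random-sequence control probes of each array, and a gene counts as under it in a stage when both arrays are. Where 1 of the 2 arrays is under it, the measured difference is given, and its size is less certain. Of all genes, 293 were at or under it only in mycelium, 429 only in the cap and 1604 in both. The remaining 10994 were above it in both. The at least 2-fold calls include 49 rises and 42 falls of genes under the floor in both stages. They also include 204 rises from under it in mycelium alone and 369 falls to under it in the cap alone. All of these stay in the later counts of steps and neighbours. Unnamed genes, predicted or hypothetical proteins, made up 67.5% of the array, and they supplied 1498 of the 1973 that rose at least 2-fold and 1644 of the 2263 that fell. These were 16.7% and 18.3% of the unnamed genes, against 11.0% and 14.3% of the 4328 named ones.

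**Figure D1:**
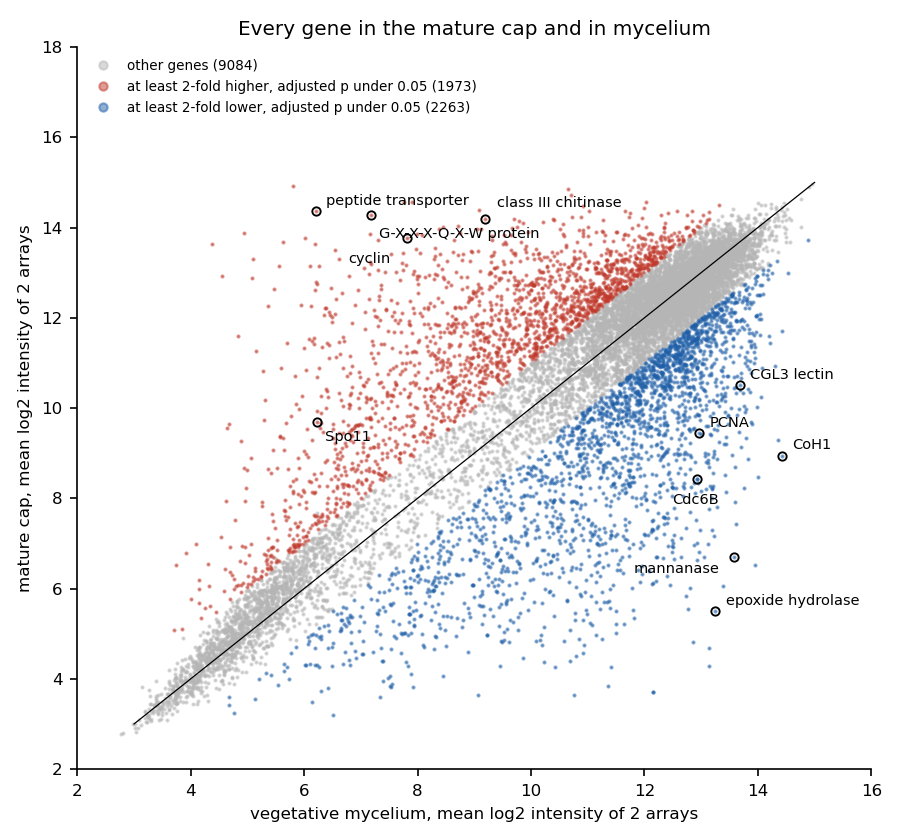
Mean log2 intensity of 2 arrays for each of 13320 genes in mycelium (x axis) and in the mature cap (y axis). Red and blue points are the 1973 and 2263 genes called at least 2-fold higher and lower, the line marks equal levels, and circles mark genes named in the text, with Spo11 and the class III chitinase above the line and CGL3, PCNA and CoH1 below it.

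Among named products above the floor in both stages, the largest rise was in a protein with the G-X-X-X-Q-X-W domain (CC1G_02597), a repeat known from ricin B-type lectins. It read 7.18 and 7.16 in mycelium and 14.26 and 14.29 in the cap, a rise of 7.11 ± 0.0605, or 138-fold (adjusted p = 8.79e-10). In young fruiting bodies its mean was still 8.04. D-lactaldehyde dehydrogenase (CC1G_11975) went from 7.29 and 7.32 to 13.72 on both arrays, a rise of 6.42 ± 0.0431 (adjusted p = 4.68e-10). A glyceraldehyde 3-phosphate dehydrogenase (CC1G_09117), a glycolytic enzyme, read 8.39 and 8.49 in mycelium and 14.03 and 14.00 in the cap and rose 47.6-fold.

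A cyclin (CC1G_09963), a member of the family that binds and steers cyclin-dependent kinases, rose from 7.82 and 7.80 to 13.79 and 13.76, or by 5.97 ± 0.0614. It ran against most genes of cell division, described below, and had already reached a mean of 12.97 in young fruiting bodies. A beta-glucosidase (CC1G_09477), which releases glucose from short beta-glucans, rose 48.4-fold from 7.53 and 7.31 to 13.02 on both arrays. The C factor cell-cell signaling protein (CC1G_00069), named after a bacterial signal, rose by 5.84 ± 0.0605. Laccase 7 (CC1G_09611), a copper enzyme that oxidises phenols, rose by 5.39 ± 0.0795. The other rises of this rank were in a nitroreductase (CC1G_14853, 5.54 ± 0.108), a thioredoxin-dependent peroxidase (CC1G_07749, 5.40 ± 0.194), which removes peroxides, and the Rds1 protein (CC1G_07856, 5.32 ± 0.0448). All 10 had an adjusted p of at most 2.42e-07.

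Other named genes were under the floor in mycelium and bright in the cap. The peptide transporter MTD1 (CC1G_02463), of a family that imports short peptides, read 6.19 and 6.23 in mycelium and 14.33 and 14.41 in the cap, at least 215-fold higher (adjusted p = 1.47e-09). A cytochrome P450 (CC1G_14898) read 6.11 and 5.91 against 13.82 and 13.71 and was at least 142-fold higher. A small heat shock protein (CC1G_05868), of the family that holds unfolded proteins in solution, read 5.46 and 5.77 against 13.72 and 13.65 and was at least 133-fold higher. Its mean in young fruiting bodies was 8.81. Growth temperature and stage changed together between mycelium and cap, and the cause was not tested. Lysozyme (CC1G_03076), which cuts bacterial walls, was at least 91.9-fold higher, a protein kinase of the AgaK1 group (CC1G_07751) at least 64.6-fold, and phenol 2-monooxygenase (CC1G_14808) at least 43.1-fold (adjusted p at most 2.63e-08).

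The falls among named products with signal on at least 1 array of both stages were led by enzymes that cut polysaccharides, by hydrophobins and by single products of other kinds. Mannanase (CC1G_02860), which cuts plant mannans, read 13.55 and 13.61 in mycelium and 6.48 and 6.94 in the cap, a measured fall of 6.87 log2 units (adjusted p = 1.67e-08). One of its cap arrays was under the floor and the other just above it. The ebpl-prov protein (CC1G_05046) fell from 12.92 on both arrays to 6.85 and 6.40, the lower of these being under the floor. It still had a mean in young fruiting bodies of 12.52. An exo-beta-1,3-glucanase (CC1G_08284), which trims the glucans of fungal walls, fell from 13.12 and 13.11 to 6.77 and 7.23, and had already reached 8.25 in initials. CoH1 products, hydrophobins of C. cinerea, made up 2 of the 10 falls, CC1G_02184 from 14.44 and 14.41 to 9.27 and 8.62 and CC1G_02183 from 14.37 and 14.33 to 9.49 and 9.12.

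A mating-type pheromone precursor (CC1G_02130) fell 33.7-fold, from 12.19 and 12.21 to 7.29 and 6.96. Of the remaining members of this rank, LAP1 (CC1G_04948) changed by -5.69 ± 0.194 and OrdA (CC1G_05781), named after an oxidoreductase of the aflatoxin pathway of Aspergillus, by -5.53 ± 0.0381. A protein with the tyrosinase central domain (CC1G_06016), the copper fold of melanin-forming enzymes, changed by -4.84 ± 0.195 and the copper homeostasis protein cutC (CC1G_06578) by -4.82 ± 0.0802. The adjusted p of these 10 was at most 4.32e-07.

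Products bright in mycelium and under the floor in the cap included an epoxide hydrolase (CC1G_09851), which opens epoxide rings. It read 13.21 and 13.28 against 5.70 and 5.29 and was at least 89.7-fold lower in the cap (adjusted p = 1.26e-08). Snodprot1 (CC1G_09154), a small secreted protein of the cerato-platanin family, read 12.48 and 12.41 against 5.86 and 6.32 and was at least 51.3-fold lower. Cytochromes P450 CC1G_01638 and CC1G_04797 were at least 43.4-fold and at least 32.6-fold lower, and a kinase of the FunK1 group (CC1G_10359) at least 25.6-fold. Carbonic anhydrase (CC1G_02558), which interconverts carbon dioxide and bicarbonate, was at least 24.1-fold lower, at 11.35 on both arrays in mycelium and 6.30 and 6.73 in the cap.

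Unnamed genes gave differences of similar size. CC1G_11070 read 5.89 and 7.19 in mycelium, the lower array being under the floor, and 13.60 and 13.41 in the cap. CC1G_13745 was under the floor in mycelium at 6.29 and 6.08 and read 13.63 and 13.62 in the cap, at least 129-fold higher. CC1G_10318, CC1G_05060 and CC1G_05725 rose by 6.79 ± 0.0573, 6.71 ± 0.0319 and 6.69 ± 0.0934. CC1G_03184 was at least 315-fold higher from under the floor and CC1G_14899 at least 154-fold. In the other direction, CC1G_15645, CC1G_07550, CC1G_09279 and CC1G_04723 changed by -6.34 ± 0.0708, -6.18 ± 0.0433, -6.16 ± 0.0424 and -6.06 ± 0.175. CC1G_09588, CC1G_06639 and CC1G_06081 went under the floor in the cap, at least 145-fold, at least 98.6-fold and at least 82.6-fold lower. The adjusted p was at most 3.18e-06 for these 14 genes.

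**Figure D2:**
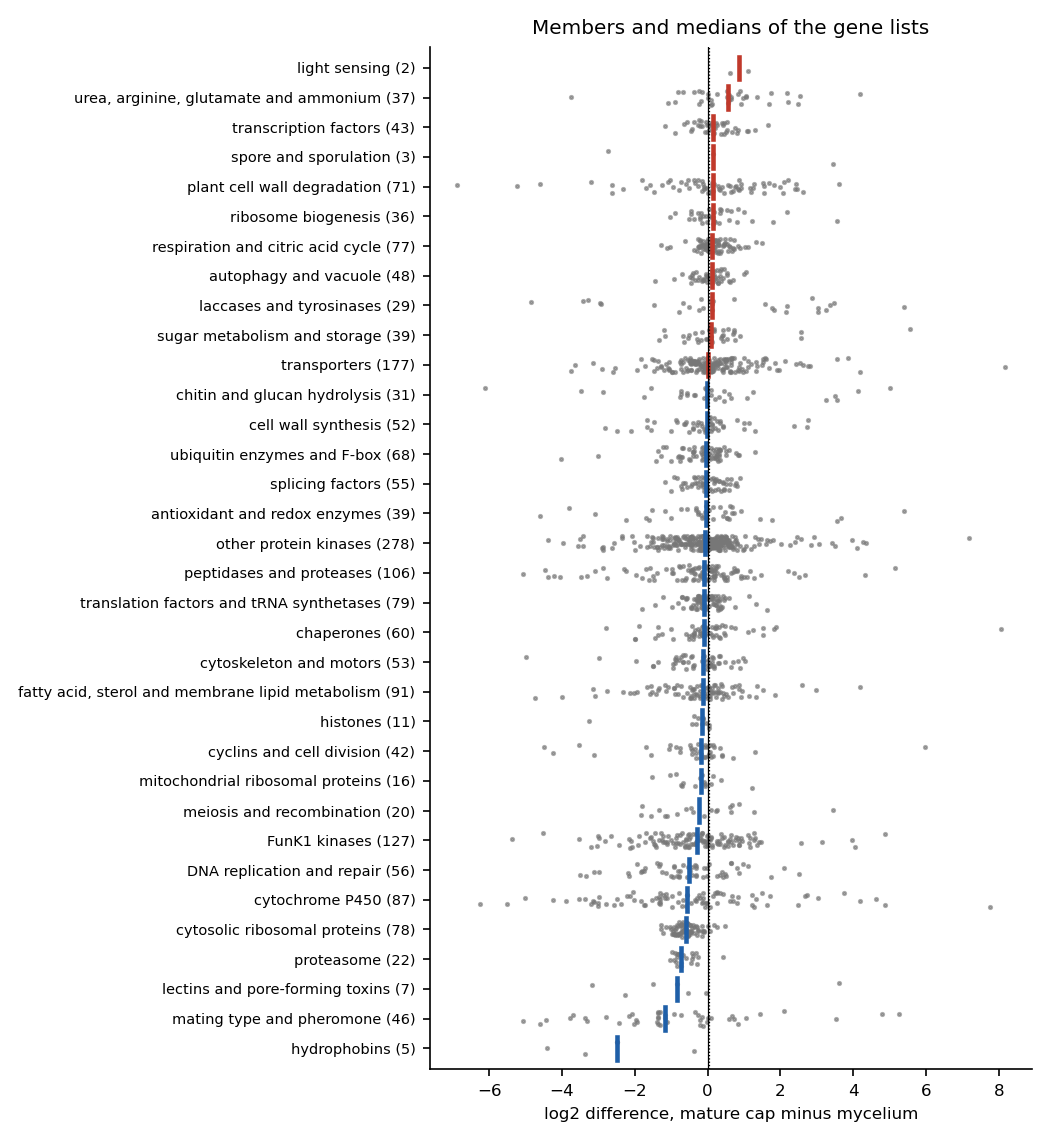
Log2 difference, mature cap minus mycelium, of each member (grey points) of 34 lists made from product names, with the number of members in brackets and the list median as a bar, red above 0 and blue below. The hydrophobins have the lowest median (-2.50), and urea, arginine, glutamate and ammonium the highest (0.56) of the lists with more than 3 members.

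The counts of a list are to be read against all genes, of which 40.7% were higher and 40.0% lower, 14.8% and 17.0% at least 2-fold, and no list was tested as a set. Enzymes that cut chitin and glucan of the fungal wall moved both ways, with the chitinases among the rises. In the list of 31, 13 were higher and 12 lower, 7 and 5 of them at least 2-fold, and the median was -0.02 against 0.03 for all genes. The class III chitinase (CC1G_04407) read 9.26 and 9.11 in mycelium and 14.21 and 14.16 in the cap, a rise of 5.00 ± 0.0869, or 32.0-fold (adjusted p = 9.08e-09). Chitinase CC1G_00406 read 8.79 and 8.73 against 12.92 and 12.89 and rose by 4.14 ± 0.0732. The class V chitinase ChiB1 (CC1G_09921) read 10.98 and 10.87 against 14.50 and 14.48 and rose by 3.56 ± 0.0496. Both arrays of the cap lay far above those of mycelium for all 3. Endochitinase CC1G_05291 was higher by 3.25 ± 0.0659 as well. Of the 8 products that contain the word chitinase, a subset chosen after the values were seen, 6 were higher, 0 lower and 2 not called. The largest falls in the list were of glucan-cutting enzymes: beside the exo-beta-1,3-glucanase above, a family 16 glycosyl hydrolase, a family with many beta-glucanases (CC1G_02606), fell from 12.64 and 12.66 to 9.16 and 9.21, and an alpha-1,3-glucanase (CC1G_06463) from 9.03 and 9.12 to under the floor, at least 4.97-fold.

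The genes that build the wall were divided as well: of 52, 18 were higher and 22 lower (median -0.03). Chitin deacetylases, which turn chitin into chitosan, went opposite ways, since CC1G_00973 rose by 2.75 ± 0.0400 and CC1G_00306 changed by -2.49 ± 0.0337. A beta-(1-6) glucan synthase (CC1G_10038) rose from 11.59 and 11.42 to 13.89 on both arrays and a beta-glucan synthesis-associated protein (CC1G_04542) by 2.73 ± 0.0414. A putative chitin synthase (CC1G_05866) fell from 13.88 and 13.81 to 11.73 and 11.78 and GPI mannosyltransferase 2 (CC1G_07396), which builds membrane anchors of wall proteins, by 2.81.

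Every listed hydrophobin was lower in the cap. Hydrophobin CC1G_02182 read 12.64 and 12.72 in mycelium and 8.15 and 8.40 in the cap, a fall of 21.2-fold (adjusted p = 1.1e-08). Hydrophobin-315 (CC1G_09189) read 14.26 and 14.34 against 11.06 and 10.78, and the hydrophobin-251 products CC1G_10176 and CC1G_08314 changed by -2.50 ± 0.0447 and -2.49 ± 0.0589. The smallest difference, -0.37 ± 0.0311, was in the remaining hydrophobin-251 (CC1G_13822). The list median was -2.50, and 4 of the 5 fell at least 2-fold. Counted after the values were seen, the CoH1 and CoH2 products brought the family to 10 genes, and all 10 were lower, 9 of them at least 2-fold, with a median of -3.19. CoH2 (CC1G_02185) had a mean of 12.91 in initials against 10.49 in mycelium, and was under the floor in the cap. CoH1 CC1G_02174 had the widest replicate gap, at 8.66 and 7.80 in the cap, and its call was lost when the replicate pairs of mycelium, initials and young fruiting bodies were averaged. Close copies of such families can share probe signal.

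Laccases were higher in the cap in most members. The list of laccases, tyrosinases and other copper oxidases had 29 members, of which 16 were higher and 11 lower, with 12 and 6 at least 2-fold and a median of 0.12. Leaving out copper radical oxidases and glyoxalases, which the product words had brought in, was an alternative chosen after the values were seen. The counts were then 14 and 5 of 21, and the median rose to 1.77. Of the 17 products with laccase in their name, again counted after the values were seen, 13 were higher and 3 lower. Laccase 1 (CC1G_09614) read 7.15 and 6.92 in mycelium and 10.74 and 10.30 in the cap, a rise of 3.48 ± 0.166. A laccase 5 product (CC1G_00690) read 10.88 and 10.89 against 14.19 and 14.28 and rose by 3.35 ± 0.0478 (adjusted p = 4.48e-09). Against this direction, laccase-1 (CC1G_08591) fell from 11.66 and 11.83 to 8.37 and 8.30, and a copper radical oxidase (CC1G_04712), which makes hydrogen peroxide, from 13.68 and 13.69 to 10.44 and 10.38.

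Enzymes that degrade plant cell walls, the substrate of a saprotroph in nature, did not move as a block. There were 38 higher and 24 lower of 71 (18 and 14 at least 2-fold, median 0.15). Cutinase (CC1G_09668), which cuts the cutin of leaves, was at least 19.7-fold lower in the cap, where it was under the floor, and a xylanase (CC1G_12457) fell from 11.70 and 11.67 to 7.30 and 6.85. Xylanase F1 (CC1G_02536) went the other way, from 8.51 and 8.53 to 12.02 and 12.21, endoglucanase B (CC1G_10029), a cellulase, rose by 2.62 ± 0.0784, and a cellulose binding iron reductase (CC1G_09535) by 2.46 ± 0.0333.

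Genes of urea, arginine, glutamate and ammonium were higher in the cap in most of the list: 24 of 37 were higher and 10 lower, 10 and 2 at least 2-fold, with a median of 0.56. An allantoate permease (CC1G_06212), an importer of a purine breakdown product, read 10.61 and 10.69 in mycelium and 14.86 and 14.84 in the cap, a rise of 4.20 ± 0.0351 (adjusted p = 8.79e-10). The urea transporter (CC1G_06488) read 9.70 and 9.67 against 12.27 and 12.17, and the urease accessory protein UreF (CC1G_01326), which helps to load nickel into urease, 10.19 and 10.18 against 12.66 and 12.68. The falls were led by an ammonium transporter (CC1G_05914), at 9.30 and 9.26 in mycelium and under the floor in the cap, at least 5.73-fold lower. Ornithine carbamoyltransferase (CC1G_10680), a urea cycle enzyme that makes citrulline, changed by -1.08 ± 0.0288 and an arginase (CC1G_06612), which splits arginine into ornithine and urea, by -0.89 ± 0.0413.

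Transporters as a whole were split between 82 higher and 70 lower of 177 (median 0.02). After the peptide transporter and the allantoate permease, the next largest rise was in a cytosine permease (CC1G_05218, 3.85 ± 0.0643). A drug transporter (CC1G_05728) fell from 13.51 and 13.44 to 9.85 and 9.84 and a sugar transporter (CC1G_04773) from 13.25 and 13.30 to 10.26 and 10.02. Peptidases numbered 37 higher and 51 lower of 106 (median -0.09). An endopeptidase (CC1G_05754) rose from 8.75 and 8.73 to 13.96 and 13.81 and a metalloprotease (CC1G_08950) by 4.32 ± 0.0620. Metalloprotease CC1G_05799 fell from 11.15 and 11.25 to 6.67 and 6.83, the lower cap array being under the floor. CC1G_02236 was at least 11.0-fold lower, under the floor in all fruiting stages.

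Sugar metabolism was higher in 23 and lower in 12 of 39 genes (median 0.11). Mannitol-1-phosphate dehydrogenase (CC1G_07718), which makes the storage polyol mannitol, read 11.75 on both arrays in mycelium and 14.34 and 14.32 in the cap and rose by 2.58 ± 0.0411. A phosphoglycerate mutase (CC1G_03153), a glycolytic enzyme, rose by 2.55 ± 0.0413. Trehalose phosphorylase (CC1G_03906), which splits the storage sugar trehalose, fell from 13.98 and 13.96 to 12.83 and 12.78. It had been higher still in young fruiting bodies, at a mean of 14.53.

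Respiration and the citric acid cycle had 43 of 77 genes higher and 20 lower, against 40.7% and 40.0% of all genes, with a median of 0.13 and 4 and 3 at least 2-fold. Without members matched by other words the latter were 2 and 0 of 56, and the median was 0.09. The words of the list also took in isocitrate lyase (CC1G_07122), of the glyoxylate cycle that turns fat into sugar, which rose from 12.29 and 12.26 to 13.74 and 13.78. The 16 genes of the mitochondrial genome, a group formed after the values were seen, had 13 higher, 0 lower and 3 not called, with a median of 0.47. ATP synthase subunit A (CC1G_22015) read 10.59 and 10.71 against 11.82 and 11.71 and rose by 1.11 ± 0.0894. Lipid genes had 33 higher and 46 lower of 91 (median -0.13). Acyl-CoA desaturase 1 (CC1G_06579), which puts double bonds into fatty acids, fell from 12.52 on both arrays to 7.58 and 7.97, and sphingomyelin phosphodiesterase CC1G_07717, which cuts membrane sphingolipids, rose from 9.66 and 9.65 to 13.83 and 13.84.

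Cytochromes P450, oxygenases of secondary and lipid metabolism, were lower in 52 and higher in 26 of 87 genes, against 40.0% and 40.7% of all genes. At least 2-fold there were 36 falls and 16 rises. The median was -0.57, or -0.33 with values under the floor set to it, since 6 members were under it in mycelium and 11 in the cap. The P450 named 11B1 (CC1G_07897) rose from 9.05 and 9.17 to 13.97 on both arrays, and CC1G_10385 was at least 12.5-fold lower. Antioxidant enzymes were split evenly, 18 higher and 18 lower of 39 (median -0.05). Catalases, which break down hydrogen peroxide, went both ways: CC1G_11919 rose from 8.98 and 9.13 to 12.83 and 12.41, and the heat-induced catalase (CC1G_09926) fell from 13.89 and 13.86 to 10.87 and 10.70. A Cys 2 peroxiredoxin (CC1G_04730) fell by 3.81 and a glutathione S-transferase (CC1G_15821) rose by 3.68 ± 0.0761.

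Genes of the ribosome and of the proteasome were lower in the cap almost throughout. Of 78 cytosolic ribosomal proteins, 71 were lower and 3 higher, against 40.0% and 40.7% of all genes, and the median was -0.60. Protein S15a (CC1G_11854) read 13.12 and 13.18 in mycelium and 11.94 and 11.80 in the cap, a fall of 1.28 (adjusted p = 6.68e-07), and L17 (CC1G_09927) changed by -1.27 ± 0.0474. The exceptions were S7 (CC1G_14669, 0.47 ± 0.0403), S12 (CC1G_03461, 0.25 ± 0.0466) and L31 (CC1G_03830, 0.18 ± 0.0423), and the calls of S12 and L31 were lost with the averaged replicate pairs. Of the proteasome, which degrades ubiquitin-tagged proteins, 21 of 22 genes were lower and 1 higher, with a median of -0.74. Its component Pre1 (CC1G_11840) read 12.93 and 12.96 against 11.98 and 11.86 and changed by -1.03 ± 0.0447, while 1 product of the 26S subunit (CC1G_04975) rose by 0.41 ± 0.0307. At least 2-fold falls were found in 6 of the ribosomal genes and 1 of the proteasome genes.

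Groups related to these by function had more even counts. Ribosome biogenesis had 18 higher and 12 lower of 36 (median 0.14), led by a snoRNA binding protein (CC1G_06928) that rose from 8.92 and 8.88 to 12.40 and 12.50. BRX1 (CC1G_01146), which acts on the large ribosomal subunit, changed by -1.03 ± 0.0511. Mitochondrial ribosomal proteins had 4 higher and 10 lower of 16 (median -0.19). Translation factors and tRNA synthetases had 29 higher and 40 lower of 79 (median -0.10). Isoleucyl-tRNA synthetase (CC1G_05258), which charges tRNA with isoleucine, fell from 12.69 and 12.54 to 10.88 and 10.77.

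Ubiquitin enzymes and F-box proteins were 27 higher and 33 lower of 68 (median -0.04), with a ubiquitin hydrolase (CC1G_10183) falling from 12.41 and 12.50 to 8.44 and 8.39. Chaperones were 23 higher and 30 lower of 60 (median -0.11), with the small heat shock protein described above far beyond the next rise, a heat shock protein (CC1G_14207, 1.89 ± 0.0365). Autophagy and vacuole genes were 25 higher and 16 lower of 48 (median 0.12). Autophagy protein 7 (CC1G_10165), which activates ubiquitin-like proteins for autophagosome growth, rose from 11.38 and 11.26 to 12.37 and 12.36.

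In DNA replication and cell division most members were lower in the cap, some of them more than 8-fold, and others were higher. In the replication and repair list, 36 of 56 were lower and 15 higher, against 40.0% and 40.7% of all genes, with 16 and 4 at least 2-fold and a median of -0.52. PCNA (CC1G_05633), the sliding clamp of DNA polymerases, read 12.95 and 12.98 in mycelium and 9.56 and 9.34 in the cap, 11.4-fold lower (adjusted p = 1.55e-08). A DNA ligase (CC1G_07933), which joins DNA strands, fell from 10.98 and 10.85 to 7.51 and 7.66 and a replication origin binding protein (CC1G_05245) from 11.74 on both arrays to 8.64 and 8.59. The rises were of the small subunit of ribonucleotide reductase (CC1G_00200), which makes deoxynucleotides, by 2.50 ± 0.0799, an ATP dependent DNA ligase (CC1G_00680) by 2.10 ± 0.0285 and DNA polymerase lambda (CC1G_01597), a repair polymerase, by 1.74 ± 0.206.

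Of the cyclins and cell division genes, 25 of 42 were lower and 10 higher (median -0.18). Cdc6B (CC1G_03323), of the family that loads the replicative helicase, read 12.97 and 12.87 in mycelium and 8.48 and 8.37 in the cap, a fall of 22.6-fold. A Cdc20 family protein (CC1G_09412), an activator of the anaphase-promoting complex, read 11.70 and 11.75 against 7.36 and 7.58, and Cdc45 (CC1G_05095), a part of the replicative helicase, 11.66 and 11.65 against 8.03 and 8.20. The adjusted p of these 3 was at most 6.47e-09. Cyclin-C (CC1G_06655), which works with the transcription machinery, rose by 0.70 ± 0.0379. Histone differences were mostly small: 8 of 11 were lower and 0 higher, with a median of -0.17, and H2A CC1G_07640 was the exception with a fall from 13.42 on both arrays to 10.28 and 10.04. Without it the lowest difference was that of H2B CC1G_03523, -0.42 ± 0.0388.

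Cytoskeleton and motor genes had 29 lower and 17 higher of 53 (median -0.12). Leaving out 5 products that the words of the list had caught by accident moved the median to -0.39. An actin product (CC1G_13050) read 10.87 on both arrays in mycelium and was under the floor in the cap, at least 17.3-fold lower. A dynein intermediate chain (CC1G_06941), of the motor that runs along microtubules, fell from 10.11 and 10.17 to 7.06 and 7.24 and a kinesin (CC1G_05372), another microtubule motor, went from 12.71 and 12.60 to 10.69 and 10.66.

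Meiosis and recombination genes lay on both sides of mycelium. The list had 9 higher and 10 lower of 20, with a median of -0.24 that turned to 0.24 once 5 products caught by other words were left out. Spo11, described above, had been higher before the cap matured, at a mean of 11.55 in young fruiting bodies. Msh5 (CC1G_14981), a crossover protein, rose by 0.86 ± 0.0918. RAD50 (CC1G_03010), which tethers broken ends, fell from 12.50 and 12.41 to 10.62 and 10.66 and a cohesin subunit (CC1G_10710), part of the ring that holds sister chromatids together, from 12.58 and 12.64 to 10.99 and 11.13. The basidiospore development protein (CC1G_05700) read 7.82 and 7.69 in mycelium and 5.39 and 4.65 in the cap, where it was under the floor, and was at least 1.99-fold lower. In the sporulation list of 3 genes the others were Spo11 and SPO14 (CC1G_02932), whose difference of 0.16 ± 0.0377 was lost as a call with the averaged pairs.

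Of the mating genes, 30 of 46 were lower in the cap and 10 higher, against 40.0% and 40.7% of all genes. At least 2-fold there were 25 falls and 6 rises, against 17.0% and 14.8% of all genes, with a median of -1.17. The pheromone Phb2.1 B43 (CC1G_02135), a secreted mating signal, read 11.16 and 11.19 against 6.39 and 6.73 and was at least 21.2-fold lower, and the pheromone gene CC1G_01515 fell from 13.15 and 13.13 to 8.89 and 8.50. Another pheromone gene, CC1G_15337, ran against them with 6.62 and 6.79 in mycelium and 11.53 and 11.45 in the cap, a rise of 4.78 ± 0.0978 (adjusted p = 1.73e-08). The pheromone-regulated membrane proteins CC1G_01756 and CC1G_07958 rose too, at least 28.0-fold and 11.4-fold. Several pheromone genes had nearly the same mean as one another, for example CC1G_14007 with 12.88 in mycelium and 11.52 in the cap and CC1G_08185 with 12.87 and 11.51. CC1G_14008, CC1G_14010, CC1G_14011, CC1G_14855 and CC1G_14884 lay close to them, and each is counted as its own fall of at least 2-fold. Whether such copies share probe signal, and so enter the counts more than once, was not tested.

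Of the 7 lectins and toxins, 5 were lower and 1 higher (median -0.84). Ricin B lectin (CC1G_11246), a sugar-binding protein, read 9.91 and 9.88 in mycelium and 13.49 and 13.55 in the cap and rose by 3.62 ± 0.0655, in the opposite direction to the galectins. Lectin PVL (CC1G_03091) and hemolysin (CC1G_02801), a pore-forming toxin, changed by -0.84 ± 0.114 and -0.54 ± 0.0699, and the lectin CC1G_04692 by -0.05 ± 0.0327 (adjusted p = 0.201), which did not pass.

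Among regulators, the FunK1 kinases, a family expanded in mushrooms, were lower in 66 and higher in 35 of 127 genes (median -0.28). Of these, 33 were under the floor in mycelium and 41 in the cap, and with such values set to the floor the median was 0.01. CC1G_09618 rose from 7.97 and 8.01 to 12.89 and 12.84, and CC1G_02100 was at least 10.7-fold lower. Other protein kinases were 106 higher and 121 lower of 278 (median -0.07, or -0.00283 with values under the floor set to it), shares near those of all genes, with a CAMK-type kinase (CC1G_13697) rising from 7.65 and 7.71 to 11.91 and 11.99. A TKL-type kinase (CC1G_02847) was at least 11.5-fold lower.

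Transcription factors were higher in 23 and lower in 11 of 43 (median 0.16). Without members matched by other words they were 15 and 9 of 32, and the median was 0.06. The ACE1 factor (CC1G_08665), named after a metal-responsive activator of yeast, rose from 12.94 and 12.92 to 14.02 and 14.05, and the GATA-4 product (CC1G_14734) changed by -0.56 ± 0.0419. Splicing factors were even, 25 higher and 25 lower of 55 (median -0.05). Both genes of the light list, a repair enzyme and a photoreceptor, were higher, against 40.7% of all genes. Photolyase (CC1G_14649), which repairs ultraviolet damage with blue light, rose by 1.10 ± 0.0553 and photoreceptor A (CC1G_08609) by 0.62 ± 0.0300. Caps had been formed under a light cycle, and light and stage cannot be told apart. For mycelium no light condition is given in the sources used here.

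The path from mycelium to cap runs over 4 steps, whose changes add up to the difference described. For each gene that differed at least 2-fold, the step with the largest move in the same direction was found. Among the 1973 genes that rose, it was the first step, to initials, in 756 (38.3%) and the last, from young fruiting body to cap, in 1024 (51.9%). For the 2263 genes that fell it was the first in 832 (36.8%) and the last in 1247 (55.1%). The step from initials to primordium held 113 rises and 48 falls, and that from primordium to young fruiting body 80 and 136.

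**Figure D3:**
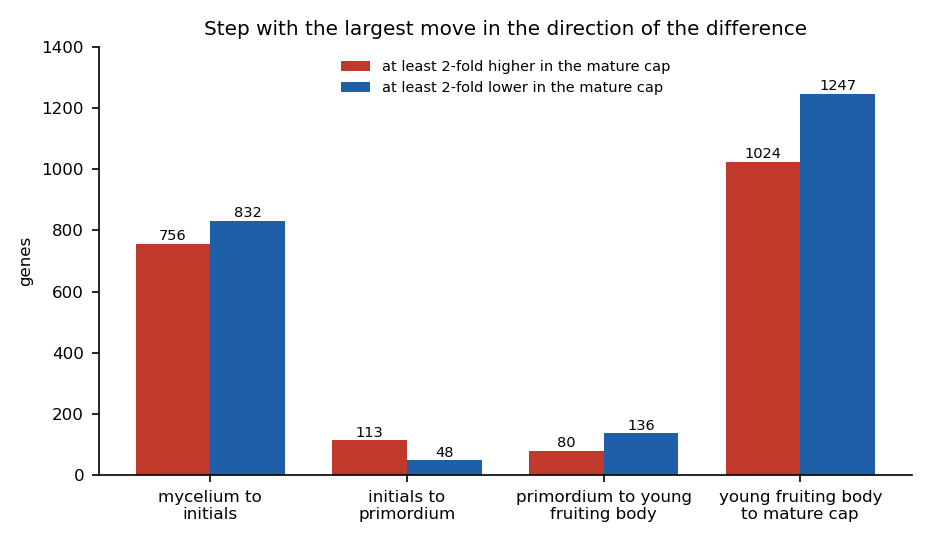
Number of genes (y axis) by the step at which they made the largest move toward their mature level (x axis), for the 1973 genes at least 2-fold higher in the cap (red) and the 2263 at least 2-fold lower (blue). The last step holds 1024 and 1247 genes, the first 756 and 832.

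First and last steps had unequal shares in the lists. In the hydrophobins the median change was -1.84 log2 units at the first step and -0.63 at the last. In DNA replication and repair it was 0.18 at the first and -0.87 at the last, and in the cytosolic ribosomal proteins -0.20 and -0.74. The proteasome had a median of -1.03 at the last step. For the mating genes the medians of the 4 steps in order were -0.29, -0.25, -0.25 and 0.65.

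The last step was tested directly as cap against young fruiting body, a contrast that shares its cap arrays with the comparison above. Over all genes 5095 were higher in the cap at that step (38.3%) and 5422 lower (40.7%). In replication and repair 44 of 56 were lower and 8 higher, in the proteasome 21 of 22 and 1, and in cytosolic ribosomal proteins 71 of 78 and 2. Meiosis and recombination had 15 of 20 lower and 4 higher at this step, with a median of -1.13. Without members matched by other words 11 of 15 were lower and 3 higher. PCNA changed by -3.48 ± 0.0700 log2 units at this step, from 12.92 and 12.95 in young fruiting bodies, and Cdc6B changed by -4.75 ± 0.0488 (adjusted p = 2.85e-08 and 3.82e-09). In both genes the young fruiting body arrays lay close to those of mycelium. The class III chitinase rose by 3.15 ± 0.0869 and laccase 7 by 4.68 ± 0.0795, the latter from 7.63 and 7.57 in young fruiting bodies. The hydrophobin CC1G_02182, in contrast, changed by -0.29 ± 0.0810 (adjusted p = 0.0132) and CoH1 CC1G_02181 by -0.05 ± 0.0589 (adjusted p = 0.489), the latter not past the threshold.

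Among named genes above the floor on at least 1 array of every stage and with their largest move in the last step, the greatest differences between cap and mycelium were taken. Upward they were those of the G-X-X-X-Q-X-W protein (6.24 ± 0.0605 at that step), D-lactaldehyde dehydrogenase (3.42 ± 0.0431), glyceraldehyde 3-phosphate dehydrogenase (3.91 ± 0.0464) and laccase 7 (4.68 ± 0.0795). The downward ones were mannanase (-3.21 ± 0.139 at the last step), the ebpl-prov protein (-5.90 ± 0.129), the pheromone gene CC1G_02130 (-3.84 ± 0.0979) and CoH1 CC1G_02183 (-1.79 ± 0.123). Mannanase and the ebpl-prov protein each had 1 cap array under the floor. The adjusted p of this step was at most 8.63e-06 for these 8 genes.

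**Figure D4:**
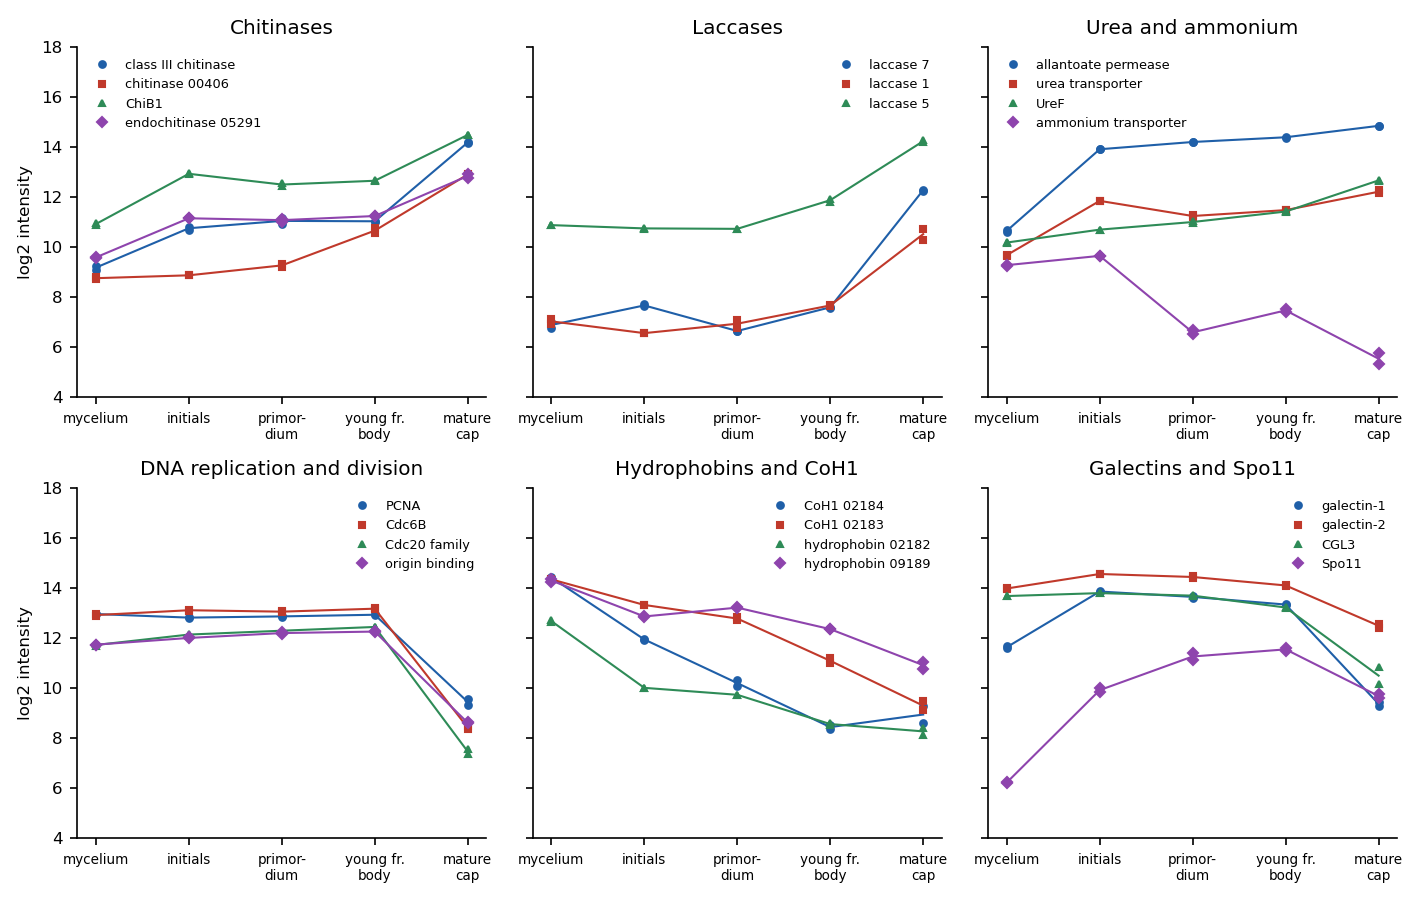
Log2 intensity (y axis) of named genes at the 5 stages (x axis). Each symbol is 1 array and lines join the stage means. The chitinases, laccases, allantoate permease, urea transporter and UreF stand highest in the cap, PCNA, Cdc6B, the Cdc20 family protein and the origin binding protein stay near their mycelial level until the young fruiting body, the hydrophobins and CoH1 are highest in mycelium, the galectins drop at the last step, and Spo11 is highest in young fruiting bodies.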

How the data were processed

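Total RNA of each stage, labelled with Cy3, was hybridised to custom NimbleGen arrays. Per the file headers, the authors deposited one RMA-summarised intensity per gene and probe block on a linear scale, from 5 probes for most genes. The software is not given in the sources used here. For the gene models no build is given in the sources used here. RefSeq assembly CC3 gave the order of neighbouring genes, by matching locus tags.

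Log2 values of the 2 deposited blocks were averaged per array. R 4.3.3 and limma 3.58.1 (lmFit, eBayes, two-sided, Benjamini-Hochberg over 13320 genes) were run on all 10 arrays with stage as the only term, after tests on simulated data. Only 2 arrays per stage limit the precision. Where a stage was under the floor, the fold is a bound against the floor. Products named in the text are the largest rises and falls among named and unnamed products, the brightest ones under the floor in 1 stage, up to 3 of each direction in a list, all members of lists of up to 8, the galectins and Spo11. The largest differences whose main step was the last were added to these. The picks by size or brightness came only from called genes whose cap and mycelium arrays did not overlap. The 34 lists are words in product names. In any list, members matched by other words were left out only as an alternative chosen after the values were seen. Members, lists and rule were chosen with earlier results of these data known. Product names follow the deposited annotation.

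Alternatives covered normalization, dim genes, probe blocks, the series table, the variance model, the arrays fitted, averaged pairs, a replicate block and each array left out.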

Additional observations from a re-analysis of the deposited data

How the results depend on the processing

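Over 14 alternative settings, calls numbered between 4755 and 5603 upward and between 4639 and 5361 downward. Calls of at least 2-fold numbered between 1930 and 2120 and between 2166 and 2276. The share of calls that were higher stayed between 49.8% and 52.2%, and the median of all genes between -0.0023 and 0.066 log2 units. The lowest call counts came from averaging the replicate pairs of mycelium, initials and young fruiting body to 1 sample each, with 4755 and 4639. Leaving out each mycelium or cap array in turn, which leaves that stage with a lone array assumed to vary like the others, gave between 5172 and 5326 and between 5121 and 5252 calls. Of 389 tabulated genes 364 were called, and 24 lost a call under at least 1 alternative. Among the 34 list medians, 17 moved in size but kept their sign with quantile normalization, and 19 with arrays shifted to the same median. Medians of lists near 0 turned sign: chitin and glucan hydrolysis was 0.059 with quantile normalization and between -0.035 and 0.061 with a replicate left out, the highest without mature cap replicate 1, and cell wall synthesis was 0.0069 with arrays shifted to the same median. The antioxidant enzymes were between -0.11 and 0.023 with a replicate left out, the highest without mature cap replicate 2, and 0.039 without members matched by other words, an alternative chosen after seeing the data, under which meiosis and recombination was 0.24. The cause was not tested. With the replicate number as a block, 5512 and 5319 genes were called. Deviations of same-numbered arrays of mycelium and cap correlated at r = 0.17 across genes, between -0.024 and 0.50 over all pairs of stages, and highest for mycelium with initials. The labels tie the 2 numbers to no shared batch, so the block stays an alternative. Fitting the 4 arrays alone gave 5085 and 5050 calls and no value for the cap against the young fruiting body. Signal limits the genes under the floor, 1604 of which were not above it in either stage.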

Other observations

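Genes that neighbour each other often differed in the same direction. Genes were matched by locus tag and ordered by position along the RefSeq assembly CC3. Of the 1973 genes at least 2-fold higher in the cap, 818, or 41.5%, had a direct neighbour that was also at least 2-fold higher. Such a neighbour was found for 3589 of all 13318 ordered genes (26.9%). Of the 2263 genes at least 2-fold lower, 1153 (51.0%) had a like neighbour, against 3973 of all genes (29.8%). No test was made of these shares, and neighbours include copies of the same family. Runs of 6 adjacent genes in the rising direction numbered 3, and the longest falling run held 8. In one rising run lay the cytochrome P450 CC1G_14898 and the hypothetical protein CC1G_14899, both described above, at least 142-fold and at least 154-fold higher from under the floor in mycelium. One falling run of 7, chosen after its values were seen, held mating genes: pheromone Phb2.1 (CC1G_02135, at least 21.2-fold lower), and with log2 differences the receptors Rcb2 (CC1G_15338, -3.77 ± 0.0642), B beta 1 (CC1G_15339, -3.37 ± 0.0517) and Rcb3 (CC1G_02137, -1.96 ± 0.0246), and the pheromones CC1G_15340 (-3.70 ± 0.0465) and CC1G_15341 (-2.03 ± 0.0532). The pheromone CC1G_15337, which rose, lies a few genes before that run on the same chromosome.

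Genes of the mitochondrial genome, named after their values were seen, also differed from the young fruiting body. Cytochrome c oxidase subunit 1 (CC1G_22010), of the last complex of the respiratory chain, was higher in the cap by 0.47 ± 0.0465 against mycelium and by 0.35 ± 0.0465 against the young fruiting body (adjusted p = 5.78e-05 and 0.000351). Apocytochrome b (CC1G_22007) gave 0.53 ± 0.0887 and 0.52 ± 0.0887 (adjusted p = 0.00105 and 0.00131). ATP synthase subunit 9 (CC1G_22004) was not called in either contrast, at -0.11 ± 0.0475 and 0.11 ± 0.0475 (adjusted p = 0.0619 and 0.0669).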
